A study of Mus musculus with 6 samples.

Results

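The genes described here encode the proteins that coat lipid droplets and the enzymes and cofactors that break down or make the triglyceride inside them. They are 10 of the 49585 genes in a deposited table of RNA-seq read counts from mouse hearts. The list (Plin2, Plin3, Plin4, Plin5, Pnpla2, Lipe, Abhd5, G0s2, Ces1d and Dgat2) was chosen from that table with earlier results of this same comparison known, including a split between the exon and the intron reads of Ces1d. Changes of these genes between the groups are therefore a description, and their p-values are not independent tests.

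Hearts came from partial gravity mice (PG, 3 libraries) and ground control mice (GC, 3 libraries), and the comparison asks which RNAs of the heart differ between these settings. All mice were male and 8 or 9 weeks old, and the labels name no transgene, drug or other treatment. The PG mice lived at 0.167 g aboard the International Space Station, on the floor of a cage turned at 31 rpm in a centrifuge of 15 cm radius. The GC mice were C57BL/6J mice kept on the ground at 1 g, 6 per mission. The labels give a strain for the ground controls alone, tie no library to a mission and leave it unsaid whether libraries stand for different animals. The p-values therefore rest on library-to-library spread, which may be technical. Flight hearts at 1 g were not analysed here, and reduced gravity and the other differences between station and ground cannot be told apart.

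Heart muscle draws most of its energy from fatty acids and keeps a small, fast-moving store of them as triglyceride in lipid droplets. Perilipins coat the droplet and gate the access of lipases. Adipose triglyceride lipase, made from Pnpla2, takes off the first fatty acid, with Abhd5 as its co-activator and G0s2 as its inhibitor, and hormone-sensitive lipase, made from Lipe, acts on the diglyceride that results. Many of these genes are known targets of the PPAR nuclear receptors, which fatty acids activate.

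RNA depleted of ribosomal RNA was sequenced, so reads from unspliced RNA were kept as well as reads from spliced RNA. Total exon-based counts per library ran from 6461213 to 8271553, and total intron reads from 5044823 to 6127184. Levels are given as CPM, counts set to the same library size by edgeR's TMM method. The headers of the deposited table place GC3 under PG, against that library's own name and title, and the title was followed. With GC3 moved to the PG group, edgeR called 0 of the 10 genes on exon reads, and 32 genes were called in the whole table. The unadjusted edgeR p was then under 0.05 for 4 of the 10: Plin2 (0.0093), Plin3 (0.037), Pnpla2 (0.0012) and Lipe (0.038). It was 0.20 for Plin4, 0.33 for Plin5 and 0.055 for Ces1d. The share of all genes with such a p was not counted.

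A gene was called when its adjusted p from edgeR's quasi-likelihood test (Benjamini-Hochberg over all genes tested) was under 0.05. All 10 genes passed the filter on low counts. On exon reads 5 of the 10 were called, beside 3.77% of the 12258 genes tested. Of these, 4 (Plin2, Plin4, Plin5 and Ces1d) were lower in PG hearts, beside 2.21% of all genes, and 1 (Pnpla2) was higher, beside 1.56%. In 6 of the 10 genes the PG and GC libraries did not overlap, against 20.6% of all genes. The 6 include G0s2, whose groups overlapped once exon reads not placed uniquely were counted. The median log2 fold change of the 10 genes was -0.12, and that of all genes tested was 0.00067. Nothing is read from these shares, since the list was chosen with this comparison in view. In bulk tissue, fewer cells of a type and less RNA per cell cannot be told apart.

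**Figure D1:**
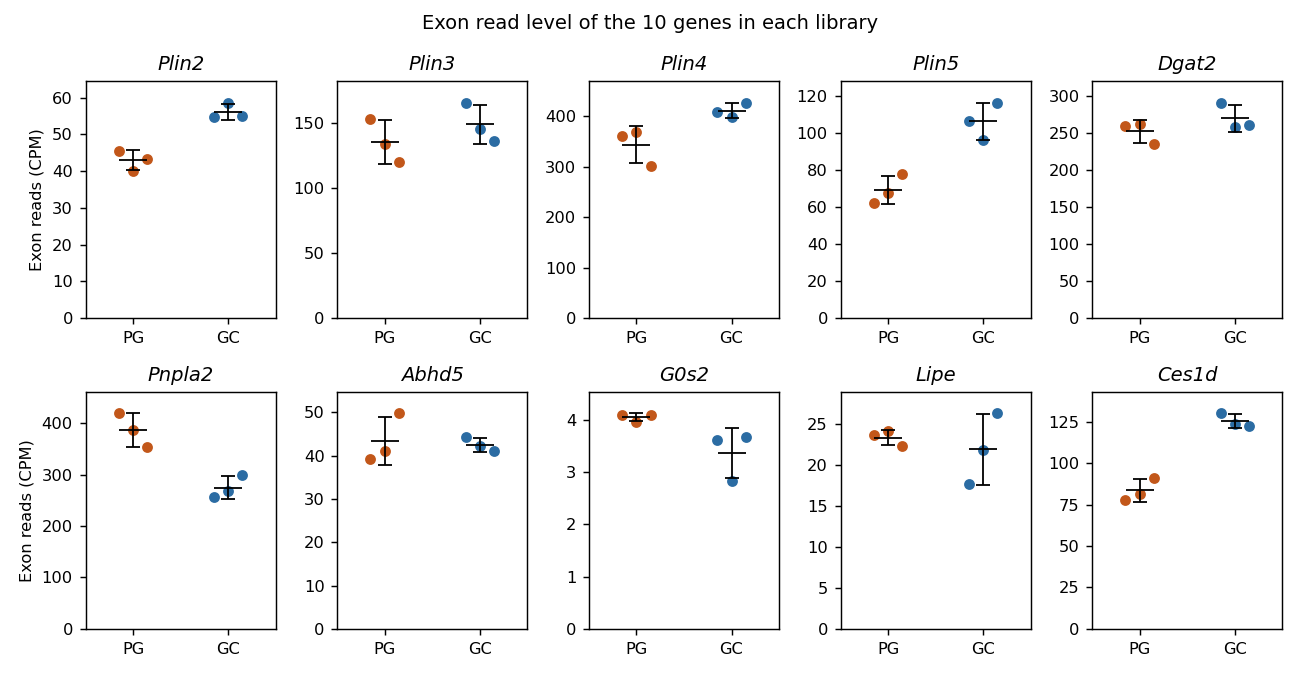
Exon read level (CPM, linear axis from 0) of each of the 10 genes, with 1 point per library, PG left of GC; the bar and whiskers are the mean and SD of 3 libraries. Plin2, Plin4, Plin5 and Ces1d lie lower in every PG library than in any GC library, and Pnpla2 and G0s2 lie higher. The G0s2 groups overlap once exon reads not placed uniquely are counted (not drawn).

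The promoters of the 4 called droplet genes found in RefSeq are shown because 3 coat protein genes were lower and the lipase gene was higher in PG hearts. Each run is read 5′ to 3′ on the gene's own strand, from 250 bases before RefSeq's start to 50 after it (build GRCm38.p6). The windows are chr4:86670010-86670309 (minus strand) for Plin2, chr17:56109733-56110032 (minus) for Plin4, chr17:56117499-56117798 (minus) for Plin5 and chr7:141454938-141455237 (plus) for Pnpla2. Capitals mark the nuclear receptor hexamer (AGGTCA, or TGACCT on the other strand) or an E-box (CACGTG).
Plin2: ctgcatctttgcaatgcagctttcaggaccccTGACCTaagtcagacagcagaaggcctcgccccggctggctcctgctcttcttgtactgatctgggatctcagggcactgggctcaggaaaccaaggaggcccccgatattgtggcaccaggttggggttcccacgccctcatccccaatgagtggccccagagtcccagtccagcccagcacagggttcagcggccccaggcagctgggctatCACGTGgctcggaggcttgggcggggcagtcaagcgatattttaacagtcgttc
Plin4: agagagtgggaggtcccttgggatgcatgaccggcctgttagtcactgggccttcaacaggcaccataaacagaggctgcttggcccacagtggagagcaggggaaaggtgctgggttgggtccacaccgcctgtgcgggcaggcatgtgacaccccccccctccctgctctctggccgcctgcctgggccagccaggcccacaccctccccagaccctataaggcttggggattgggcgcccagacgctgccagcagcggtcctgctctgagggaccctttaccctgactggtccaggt
Plin5: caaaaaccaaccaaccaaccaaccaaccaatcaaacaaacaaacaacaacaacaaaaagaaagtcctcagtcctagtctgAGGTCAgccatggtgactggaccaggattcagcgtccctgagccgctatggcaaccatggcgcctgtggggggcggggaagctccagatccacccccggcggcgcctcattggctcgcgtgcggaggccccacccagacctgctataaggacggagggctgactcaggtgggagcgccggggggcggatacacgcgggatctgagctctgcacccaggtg
Pnpla2: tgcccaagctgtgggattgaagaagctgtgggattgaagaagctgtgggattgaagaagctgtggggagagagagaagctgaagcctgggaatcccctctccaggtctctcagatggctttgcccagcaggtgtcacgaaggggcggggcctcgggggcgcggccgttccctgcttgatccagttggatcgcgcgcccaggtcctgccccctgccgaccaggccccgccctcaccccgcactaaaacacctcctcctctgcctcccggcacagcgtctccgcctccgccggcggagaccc

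The Plin2 window holds 1 such hexamer, with its first base at -218 from the start, and 1 E-box at -4. The Plin5 window holds 1 hexamer, at -170, and a second Plin5 start in RefSeq has one at 14. The Plin4 and Pnpla2 windows hold none of the letters searched. In all, 8 of the 10 genes matched the RefSeq promoter table, with 10 windows between them, and Ces1d and Dgat2 were not matched. Besides Plin2 and Plin5, the hexamer occurs in the Abhd5 window, and besides Plin2, the E-box occurs in 1 of the 2 Lipe windows. Among all 32817 windows of this length, 16.3% hold the hexamer and 7.15% the E-box, on either strand. The full PPAR direct repeat, AGGTCA repeated with 1 base between, was in 13 of all windows (0.0396%) and in none of these genes. The TATA box (TATAAA) was in 13.6% of all windows and in none of these. These are matches of letters, not measured binding, and a window without a match says nothing of the factor.

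Of the coat proteins, Plin5 showed the largest exon difference. Perilipin 5 is the perilipin of oxidative tissues, where it ties droplets to mitochondria and restrains adipose triglyceride lipase. The gene lies on the minus strand at chr17:56111601-56117596 (GRCm38). Plin5 had 62.4, 67.7 and 77.6 CPM in PG hearts, against 106, 96.0 and 116 CPM in GC hearts. The highest PG library lay below the lowest GC library. The level was 1.53-fold lower in PG hearts, a log2 fold change of -0.62 (SE 0.083, edgeR adjusted p = 1.5e-04). It stayed between -0.71 and -0.54 and past the threshold without any 1 library.

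Plin2 encodes the perilipin found on droplets in most tissues, a protein that is stable only when bound to lipid. It lies at chr4:86648386-86670060 (minus). Plin2 had 45.4, 40.2 and 43.4 CPM in PG hearts, against 54.8, 58.7 and 55.1 CPM in GC hearts. The groups were apart, with a log2 fold change of -0.38 (SE 0.079, edgeR adjusted p = 0.0051), or 1.31-fold lower. The call was lost without PG2 (adjusted p = 0.054), without GC2 (0.059) and on exon-exon reads, which join 2 exons (0.076).

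Plin4, a perilipin with a long repeat region that binds forming droplets, lies 1797 bases from Plin5 on the same strand, at chr17:56100591-56109803. Plin4 had 361, 369 and 301 CPM in PG hearts, against 408, 398 and 427 CPM in GC hearts. The groups did not overlap, but PG3 stood well below the other PG libraries. The log2 fold change was -0.26 (SE 0.066, edgeR adjusted p = 0.029). The call was lost without PG3 (0.080), GC1 (0.080), GC2 (0.092) or GC3 (0.12), under scaling by library totals (0.090), and on exon-exon reads (0.48).

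Plin3, a perilipin that moves between cytosol and droplets, lies farther along the same chromosome at chr17:56278962-56290511 (minus). Plin3 had 153, 133 and 120 CPM in PG hearts, against 166, 145 and 136 CPM in GC hearts. These ranges overlapped, and the log2 fold change of -0.14 (SE 0.091, edgeR adjusted p = 0.54) did not pass the threshold. Among the exon levels per kilobase of the 4 perilipin genes, Plin5 made up 19.9% ± 3.42 in PG hearts and 24.6% ± 1.94 in GC hearts (SD, n = 3 each). PG3, at 23.7%, lay above GC2, at 23.1%, so the Plin5 shares of the groups overlapped.

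Pnpla2, the gene of adipose triglyceride lipase, was the called gene that was higher. It lies on the plus strand at chr7:141455198-141460743. Pnpla2 had 419, 388 and 354 CPM in PG hearts, against 256, 268 and 299 CPM in GC hearts. Every PG library was above every GC library. The level was 1.41-fold higher in PG hearts, a log2 fold change of 0.50 (SE 0.066, edgeR adjusted p = 1.3e-04), and between 0.44 and 0.56 without any 1 library. On exon-exon reads alone the log2 fold change was 0.48 (adjusted p = 7.2e-05). The ratio of Plin5 to Pnpla2, from exon levels per kilobase, was 0.216, 0.253 and 0.317 in PG hearts, against 0.601, 0.519 and 0.563 in GC hearts. This ratio had to separate the groups, since Plin5 and Pnpla2 were each apart in opposite directions, and it adds nothing to them. Among the other ratios computed, the groups overlapped for Pnpla2 over G0s2 and for Plin5 over Plin2. They were apart for Pnpla2 over Lipe.

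The 2 direct partners of this lipase were not called. Abhd5, its co-activator, had 39.3, 41.1 and 49.8 CPM in PG hearts, against 44.3, 42.2 and 41.2 CPM in GC hearts. The ranges overlapped, and the log2 fold change was 0.033 (SE 0.092, edgeR adjusted p = 0.92). G0s2, its inhibitor, had 4.09, 3.96 and 4.08 CPM in PG hearts, against 3.60, 2.82 and 3.66 CPM in GC hearts. The groups did not overlap, yet with 20 to 34 counts per library the log2 fold change of 0.27 (SE 0.24, edgeR adjusted p = 0.67) did not pass the threshold. Of the G0s2 exon reads, 12% were placed uniquely, and the gene lies wholly inside Lamb3, on the opposite strand. With the other exon reads included, the G0s2 groups overlapped, at 36.0 to 37.3 CPM per kb of exon in PG hearts and 28.3 to 42.6 in GC hearts. The log2 fold change was then 0.14 (edgeR adjusted p = 0.69). Abhd5 shares 950 bases with the antisense gene A730085K08Rik. The use of strand in the counting is not given in the sources used here, so reads of such overlapping genes cannot be told apart.

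Lipe, the gene of hormone-sensitive lipase, had 23.7, 24.2 and 22.3 CPM in PG hearts, against 17.7, 21.9 and 26.4 CPM in GC hearts. All 3 PG libraries lay within the GC range, and the log2 fold change was 0.086 (SE 0.12, edgeR adjusted p = 0.82). Lipe lies wholly inside the antisense gene 4732471J01Rik, and 43.6% of its exon reads and 0% of its intron reads were placed uniquely. Dgat2, which joins the last fatty acid to diglyceride, is the one member that makes triglyceride. Dgat2 had 260, 263 and 235 CPM in PG hearts, against 291, 258 and 261 CPM in GC hearts. These ranges overlapped too, with a log2 fold change of -0.097 (SE 0.061, edgeR adjusted p = 0.49). A p above the threshold does not show that these levels were alike.

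Ces1d encodes a carboxylesterase of the endoplasmic reticulum that hydrolyses triglyceride, best known from mouse liver and adipose tissue. It lies on the minus strand at chr8:93166068-93197838. On exon reads Ces1d had 78.0, 81.6 and 91.3 CPM in PG hearts, against 130, 123 and 122 CPM in GC hearts. The groups were well apart. The level was 1.5-fold lower in PG hearts, a log2 fold change of -0.58 (SE 0.067, edgeR adjusted p = 8.4e-06), and between -0.65 and -0.53 without any 1 library.

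Intron reads of Ces1d went the other way. They numbered 241, 316 and 283 in PG hearts, against 89, 97 and 115 in GC hearts. Scaled within the intron reads, these were 37.3, 59.5 and 47.6 CPM in PG hearts, against 16.8, 16.7 and 19.7 CPM in GC hearts. The lowest PG library had more than any GC library. Intron reads were 2.70-fold higher in PG hearts, a log2 fold change of 1.43 (SE 0.16, edgeR adjusted p = 5.0e-04), and between 1.26 and 1.59 without any 1 library. They made up 27.1% to 35.4% of the gene's exon and intron reads in PG hearts and 9.67% to 12.1% in GC hearts. By fold, this was the sixth of 40 genes called higher on intron reads (rank 6).

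The test of the exon change minus the intron change used 1 model over both kinds of read. For Ces1d the difference was -2.0 on the log2 scale (SE 0.14, edgeR adjusted p = 8.0e-10), the smallest p of 10802 genes (rank 1). It was between -2.12 and -1.82 without any 1 library. Of the Ces1d intron reads, 94.8% were placed uniquely, and all of its exon reads were. Exon-exon reads, which come from spliced RNA, numbered 271, 251 and 330 in PG hearts, against 355, 361 and 354 in GC hearts. Their log2 fold change, -0.55 (edgeR adjusted p = 3.6e-05), was close to that of all exon reads.

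The other carboxylesterase genes of the cluster had few reads. Ces1e, the next gene, had 11 exon-based counts and 70 intron reads over all 6 libraries. Ces1c had 32 counts, of which 25 were in GC2. A short gene of unknown type, Gm45909, lies inside Ces1d on the same strand at chr8:93190328-93191358 and overlaps 0 of the 20 exons that GENCODE gives Ces1d. The deposited table holds this position as RP23-8D10.2, with 0 annotated exons and 0 transcripts and a count of 0 in every library. That 0 may follow from the annotation, so reads from Gm45909 and reads from Ces1d introns cannot be told apart here.

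**Figure D2:**
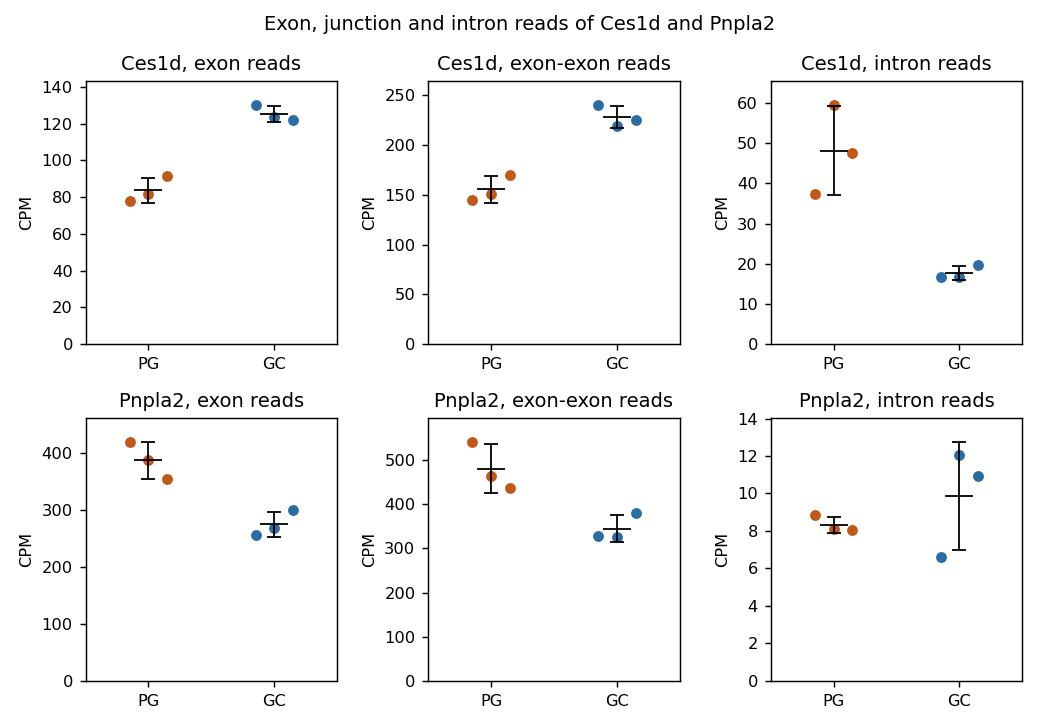
Exon, exon-exon and intron reads of Ces1d (upper row) and Pnpla2 (lower row) in CPM of each kind of read, with 1 point per library, PG left of GC; the bar and whiskers are the mean and SD of 3 libraries. For Ces1d the exon and exon-exon points are lower and the intron points higher in PG hearts, while for Pnpla2 the exon and exon-exon points are higher and the intron points overlap.

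Intron reads could be tested for 9 of the 10 genes, since G0s2 had 0 to 3 per library. Of the 9, 1 was called (Ces1d), beside 2.56% of the 12776 genes tested on intron reads. The median log2 fold change of the 9 genes was -0.083, and that of all genes was 0.0052. Plin4 came closest of the rest. It had 46.9, 56.6 and 49.7 CPM of intron reads in PG hearts, against 63.5, 68.1 and 61.4 CPM in GC hearts. The groups did not overlap, and the log2 fold change was -0.34 (SE 0.095, edgeR adjusted p = 0.089). It passed the threshold under exon-based scaling (adjusted p = 0.0083), which moves the median of all genes to -0.14, and with no filter (0.032).

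Plin5 had few intron reads, at 44, 43 and 60 in PG hearts and 61, 57 and 41 in GC hearts. The ranges overlapped, with a log2 fold change of -0.18 (SE 0.22, edgeR adjusted p = 0.79). Pnpla2 introns gave 57, 43 and 48 reads in PG hearts, against 35, 70 and 64 in GC hearts. Here the PG libraries lay within the GC range, with a log2 fold change of -0.25 (SE 0.21, edgeR adjusted p = 0.68). Intron changes of Plin2, Plin3, Lipe, Abhd5 and Dgat2 lay between -0.086 and 0.21, with overlapping groups in each. None of the Lipe intron reads was placed uniquely, so Lipe intron values and the differences that use them may hold reads of 4732471J01Rik.

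The exon and intron changes differed past the threshold in 2 of 9 genes, beside 1.29% of the 10802 genes tested for that difference. Besides Ces1d this was Pnpla2, with a difference of 0.74 on the log2 scale (SE 0.18, edgeR adjusted p = 0.025). Its call rested on all libraries but GC1, since it was lost without PG1 (adjusted p = 0.13), PG2 (0.10), PG3 (0.067), GC2 (0.31) or GC3 (0.095). For Plin5 the difference was -0.44 (SE 0.20, edgeR adjusted p = 0.41), so its exon change was not shown to differ from its intron change. The other 6 differences ran from -0.35 (Plin3) to 0.11 (Abhd5), and none passed the threshold. The median difference of the 9 genes was -0.18, and that of all genes tested was -0.0054.

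**Figure D3:**
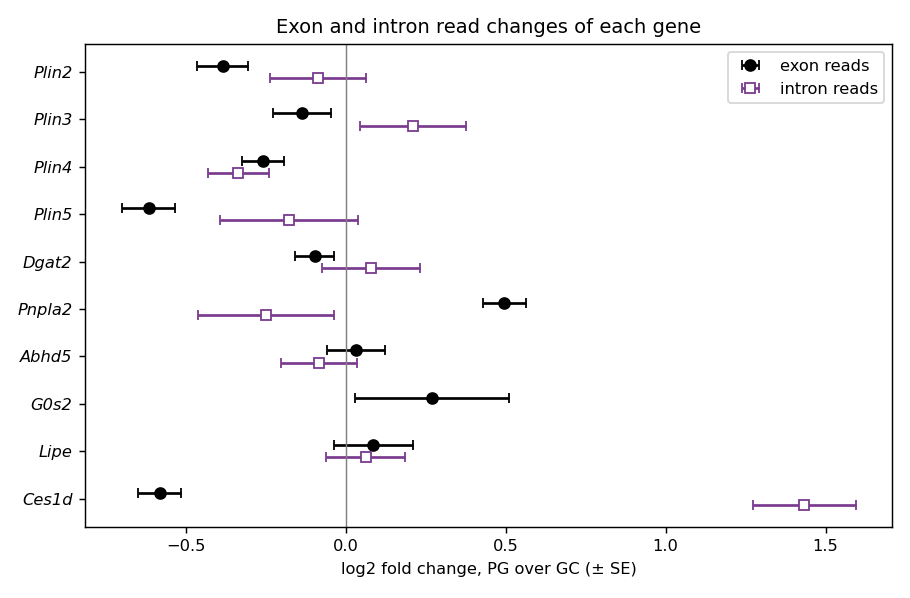
Log2 fold change, PG over GC, with its SE for exon reads (filled circles) and intron reads (open squares) of each gene. Ces1d lies left of 0 on exon reads (-0.58) and right of 0 on intron reads (1.43); G0s2 has no intron point, since it had 0 to 3 intron reads per library.

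Levels were compared between genes per kilobase of exon. Pnpla2 was the highest of the 10 by mean in both groups, at 128 ± 10.7 CPM per kb in PG hearts and 90.8 ± 7.42 CPM per kb in GC hearts (SD, n = 3 each). Dgat2 came next, at 82.0 ± 5.01 CPM per kb in PG hearts and 87.7 ± 5.92 CPM per kb in GC hearts. The lowest Pnpla2 library was above the highest Dgat2 library in PG hearts, while the ranges of these 2 genes overlapped in GC hearts.

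Plin3 averaged 62.8 and Plin4 59.5 CPM per kb in PG hearts, against 69.0 for Plin3 and 71.2 for Plin4 in GC hearts, and their ranges overlapped in each group. Ces1d averaged 35.3 and Plin5 33.2 CPM per kb in PG hearts, against 52.9 for Ces1d and 50.9 for Plin5 in GC hearts, again overlapping in each group. Plin2 averaged 12.2 and Abhd5 11.9 CPM per kb in PG hearts, overlapping there, against 16 for Plin2 and 11.7 for Abhd5 in GC hearts, where the ranges were apart. G0s2 and Lipe were the lowest by these counts. With exon reads that were not placed uniquely included, G0s2 averaged 36.5 CPM per kb in PG hearts and 33.5 CPM per kb in GC hearts, so its place depends on whether such reads are counted.

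**Figure D4:**
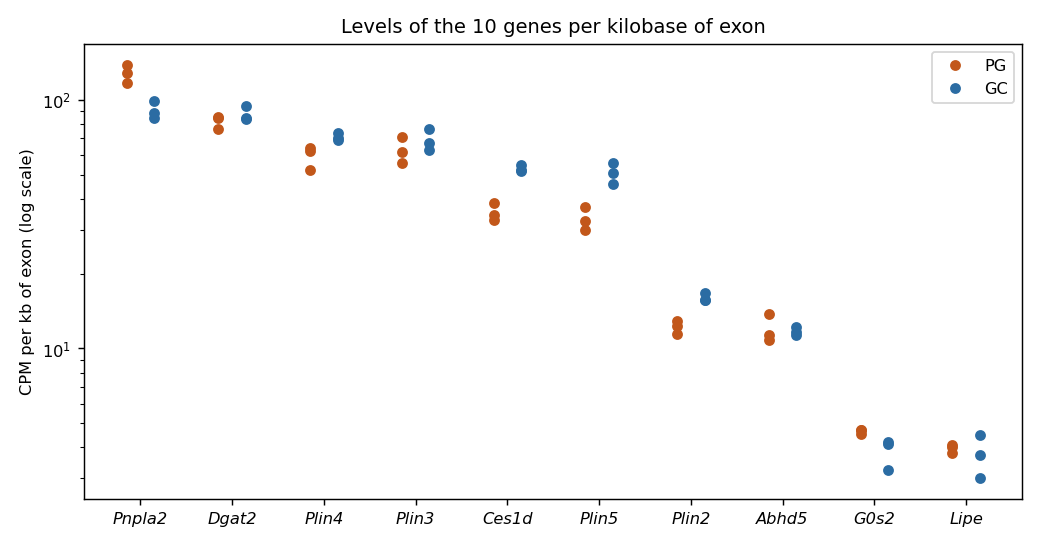
Exon level of the 10 genes in CPM per kilobase of exon (log axis), with 1 point per library, PG left of GC. Genes are ordered by their mean in GC hearts. Pnpla2 is the highest gene in PG hearts and overlaps Dgat2 in GC hearts, and G0s2 and Lipe lie lowest.

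Likeness to Plin5 and to Ces1d was measured as the root mean square difference of mean-centred log2 CPM over the 6 libraries, among 10129 genes with a mean of at least 5 CPM. The genes closest to Plin5 were Grip2 (0.073), Cbr2 (0.074) and Lingo3 (0.086). Grip2 averaged 23.5 ± 3.98 CPM in PG hearts and 35.9 ± 2.38 CPM in GC hearts (SD, n = 3 each). The genes closest to Ces1d on exon reads were Ankrd23 (0.049), Ccnd1 (0.057) and Col3a1 (0.060). Ankrd23 averaged 95.2 ± 5.10 CPM in PG hearts and 141 ± 8.81 CPM in GC hearts (SD, n = 3 each). These are descriptions over few libraries.

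Other genes of the pathway were taken from 5 lists, which were also chosen with earlier results known. On exon reads 11 of 106 tested genes were called, 4 higher and 7 lower in PG hearts, beside 3.77% of all genes called in either direction (1.56% higher, 2.21% lower). Of 15 lipid droplet proteins tested, 1 was lower and none was higher, with a median log2 fold change of -0.0051. This was Fitm1, which helps to partition triglyceride into droplets in muscle, at 39.0, 42.0 and 47.4 CPM in PG hearts, against 53.1, 61.5 and 54.9 CPM in GC hearts (edgeR adjusted p = 0.0077). The groups did not overlap, and the call was lost without PG2 (adjusted p = 0.055) or GC2 (0.10), and on exon-exon reads (0.40).

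Of 13 lipases and their inhibitors tested, 1 was higher and none was lower, with a median of -0.094. Lpl, the lipase that frees fatty acids from blood lipoproteins, had 5628, 5895 and 5554 CPM in PG hearts, against 4948, 5041 and 4902 CPM in GC hearts. It was 1.15-fold higher with groups apart (edgeR adjusted p = 0.025), and lost its call without PG2 (0.087), GC1 (0.14), GC2 (0.15) or GC3 (0.13). Of 19 triglyceride synthesis genes tested, 3 were lower and none was higher, with a median of -0.067. Acsl1, which activates long-chain fatty acids, had 797, 923 and 932 CPM in PG hearts, against 1071, 1076 and 1179 CPM in GC hearts. It was 1.25-fold lower (edgeR adjusted p = 0.0023) and stayed called without any 1 library. Agpat3, an acyltransferase, was 1.19-fold lower (adjusted p = 0.0077; 0.059 without GC2, 0.30 on exon-exon reads). Lpin1, which makes diglyceride, had a 1.14-fold lower level (adjusted p = 0.037) and was not called without PG2, GC1, GC2 or GC3 (0.060 to 0.20), on exon-exon reads (0.19) or under library totals (0.13).

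Of 27 PPAR target genes tested, 2 were higher and 2 lower, with a median of -0.011. Pdk4, a kinase that restrains the use of pyruvate, had 341, 297 and 232 CPM in PG hearts, against 716, 758 and 786 CPM in GC hearts. The groups were far apart, 2.60-fold lower in PG hearts (edgeR adjusted p = 0.0089; 0.075 without PG2). Ehhadh, an enzyme of peroxisomal fatty acid oxidation, had a 1.5-fold lower level (adjusted p = 0.015). It was not called without PG2, PG3, GC2 or GC3 (0.051 to 0.098). On exon-exon reads its log2 fold change was 0.19.

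Of 32 regulators of lipolysis and lipid gene expression tested, 1 was higher and 1 lower, with a median of 0.022. Mlxipl, the glucose-responsive factor ChREBP, had 27.2, 21.8 and 20.9 CPM in PG hearts, against 37.4, 32.2 and 37.4 CPM in GC hearts. It was 1.53-fold lower with groups apart (edgeR adjusted p = 0.0015) and stayed called without any 1 library. On exon-exon reads it was not called, with a log2 fold change of -0.39 (adjusted p = 0.33), against -0.61 on exon reads. Prkar1a, a regulatory subunit of protein kinase A, was 1.19-fold higher (adjusted p = 0.0069), a call lost without GC2 (0.054) or GC3 (0.060). On intron reads none of these lists had a gene called higher. Called lower were 2 of 21 synthesis genes tested, 3 of 26 PPAR target genes and 5 of 29 regulators. Over all genes 2.56% were called on intron reads in either direction, 327 genes of which 40 were higher.

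**Figure D5:**
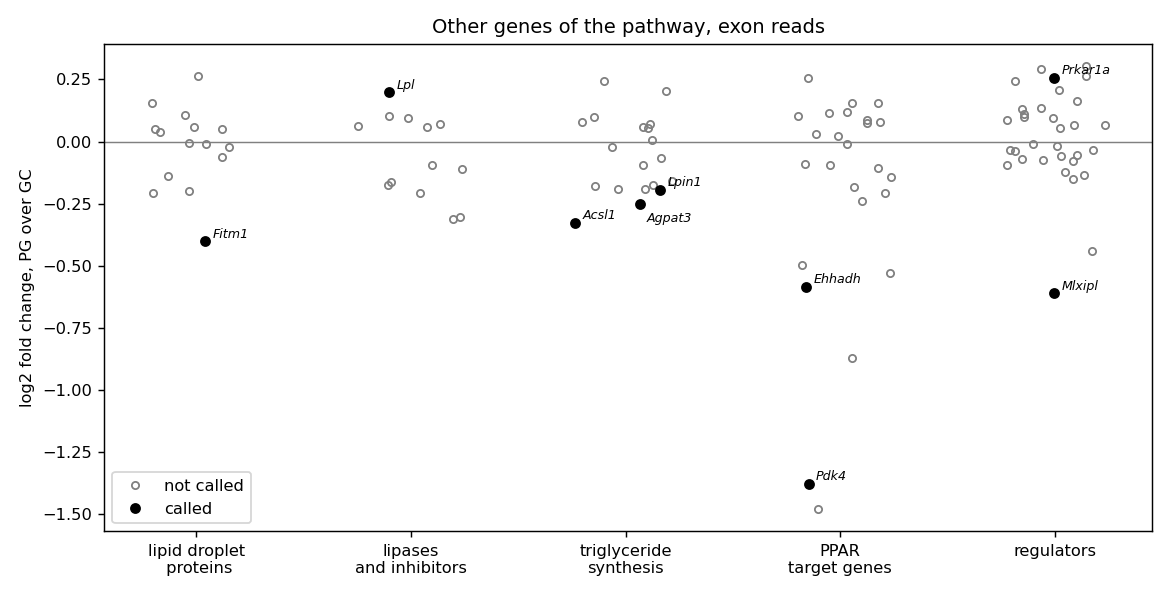
Log2 fold change of exon reads, PG over GC, for tested genes of the 5 pathway lists outside the 10 genes; filled points are called (adjusted p under 0.05) and named, open points are not. Among the called genes drawn, Pdk4 (-1.38) lies farthest from 0, and Mlxipl (-0.61) and Ehhadh (-0.58) come next.

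Several of these genes are also strong in fat cells, and fat around the heart can be dissected with it. Summed over 10 adipocyte markers, levels were 19.0 to 21.8 CPM in PG hearts and 18.2 to 26.5 CPM in GC hearts. Adipoq had 8, 9 and 8 counts in PG hearts and 5, 3 and 3 in GC hearts, and Plin1, the perilipin of fat cells, had 8, 8 and 10 in PG hearts and 5, 5 and 3 in GC hearts. Adipoq and Plin1 had more counts in every PG library than in any GC library. Both were too low for the filter, so neither was tested. Cidec had 4 to 11 counts in PG hearts and 4 to 7 in GC hearts, Lep had 1 count in all, and Ucp1 was at 0 in every library. Of the adipocyte markers 2 were tested and 0 called by edgeR, and of 4 brown adipocyte markers 2 were tested and 0 called (0 with an unadjusted p under 0.05 in each list), at sums of 20.1 to 21.9 CPM in PG hearts and 20.8 to 22.2 CPM in GC hearts.

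Cardiomyocyte markers were present as the label says, at sums of 71367 to 78602 CPM in PG hearts and 88373 to 89079 CPM in GC hearts. Of these 10 markers 4 were lower and none was higher in PG hearts, among them Myh6 (1.28-fold lower, edgeR adjusted p = 3.7e-04), Ryr2 (1.28-fold, 2.9e-04) and Actc1 (1.72-fold, 0.0011; 0.069 without PG3). Of all genes tested on exon reads, 2.21% were called lower and 1.56% higher, and the marker lists were chosen with earlier results known. Myh6 alone averaged 24907 CPM in PG hearts and 31826 CPM in GC hearts, and so weighs heavily in the sum. Tnnt2 averaged 3884 CPM in PG hearts and 3651 CPM in GC hearts, higher in every PG library than in any GC library but not called (edgeR adjusted p = 0.44). Tnni3, Myl2 and Myl3 had log2 fold changes between -0.018 and 0.026, with overlapping groups. Tnnt2, Tnni3, Myl2 and Myl3 were added after their values were seen, and Atp2a2, Mb and Ckm of the same list are not shown. Over the 10 cardiomyocyte markers the median log2 fold change was -0.092, and 5 had an unadjusted edgeR p under 0.05. Of 9 fibroblast markers 2 were lower, Postn (1.39-fold, edgeR adjusted p = 0.0021) and Col1a1 (1.18-fold, 0.013; 0.053 to 0.11 without PG2, GC1 or GC2, 0.066 on exon-exon reads), while the sum was 2183 to 2373 CPM in PG hearts and 2172 to 2224 CPM in GC hearts. No marker was called by edgeR among the 10 endothelial genes, 4 with an unadjusted p under 0.05 (1487 to 1676 CPM in PG hearts, 1623 to 1673 in GC hearts) or the 10 macrophage genes, 1 with such a p (355 to 430 CPM in PG hearts, 403 to 419 in GC hearts). None was called, and 0 had such a p, among 3 tested mesothelial genes (12.7 to 19.0 CPM in PG hearts, 11.3 to 16.6 in GC hearts) or 5 erythroid genes (586 to 986 CPM in PG hearts, 600 to 872 in GC hearts). The part of cardiomyocyte content in the changes of the droplet genes was not tested.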

How the data were processed

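The authors deposited 1 table of whole read counts per gene for 6 heart libraries (per the file headers: expression values, exon, exon-exon and intron reads; build GRCm38/mm10, per the submitters' processing notes). Gene annotation columns (other values, such as positions) came from the same deposited table. Which aligner, counter and strand setting were used is not given in the sources used here. RPKM values and the authors' comparison, whose headers put GC3 under PG, were not used; groups follow the titles.

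Exon-based counts and intron reads were each filtered (filterByExpr, minimum count 10), TMM-scaled and fitted in edgeR 4.0.16 (robust quasi-likelihood, R 4.3.3), and their difference was tested with library as a block on genes that passed both filters. P-values were adjusted by Benjamini-Hochberg over all genes tested. The biological coefficient of variation was 6.20% on exon and 10.1% on intron counts. The fits were also run on simulated counts, and the outcome is not reported here. Replicates differed beyond counting noise (chi-square per gene 2.14 to 5.73).

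The 10 genes, the 5 pathway lists and the 8 marker lists were chosen with earlier results of these data known. Besides the 10 genes, the text names up to 4 called genes per pathway list, up to 3 per marker list with the adipocyte-defining markers, and the 3 genes most like Plin5 and Ces1d. Of the genes this rule gives, 2 are not reported here and are counted in the lists only. Genes of the Ces1 cluster, overlapping genes and 4 further cardiomyocyte markers were added after their values were seen. Alternatives were other scalings (RLE, library totals) and filters, DESeq2 1.42.0 and limma 3.58.1 (voom), non-robust fitting, a replicate block, other read columns, GC3 grouped with PG, and leaving out each library.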

Additional observations from a re-analysis of the deposited data

How the results depend on the processing

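With 3 libraries per group, calls close to the threshold depended on single libraries. Of the 10 genes, 5 were called on exon reads, 3 to 5 when 1 library was left out, 3 on exon-exon reads and 0 with GC3 grouped with PG. Pathway genes called numbered 11, against 4 to 14 when 1 library was left out, 6 on exon-exon reads and 0 with GC3 grouped with PG. On intron reads 1 of the 10 genes was called, 2 under exon-based scaling, 2 with no filter and 0 with GC3 grouped with PG. Exon against intron, 2 were called, 1 to 2 when 1 library was left out and 0 with GC3 grouped with PG. Over all genes, 462 were called, against 219 without GC2, 232 without PG2, 307 with DESeq2 (286 without independent filtering), 765 with no filter, 206 on exon-exon reads and 32 with GC3 grouped with PG. On intron reads 327 were called, against 804 under exon-based scaling, 735 with no filter, 10 with GC3 grouped with PG and 134 to 506 when 1 library was left out. The exon-intron difference called 139 genes, 504 with 1 scaling for both regions, 6 with GC3 grouped with PG and 75 to 256 when 1 library was left out. The replicate block gave 5 of the 10 genes, 14 pathway genes and 545 genes in all on exon reads, and 1 of the 10 genes on intron reads, and changed no call of these 10. Same-numbered libraries did not deviate together (correlations 0.0026, -0.054 and 0.048).

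Among 400 settings of the 10 genes' log2 values, 361 kept direction and side of the threshold, 22 lost the call, 2 gained it and 15 changed sign, and the cause was not tested. Sign changes, all in uncalled values, were as follows. With GC3 grouped with PG, Abhd5 was -0.0086 on exon and 0.025 on intron reads and -0.037 in their difference, Plin2 introns were 0.012, and the Plin5 difference was 0.074. Under exon-based scaling, Lipe introns were -0.083 and Dgat2 introns -0.070. Leaving out 1 library, Abhd5 exon reads ran from -0.080 to 0.10, Lipe exon reads from -0.042 to 0.24, Lipe introns from -0.047 to 0.13 and Dgat2 introns from -0.051 to 0.31. The exon-intron differences ran from -0.020 to 0.15 for Plin4, -0.040 to 0.12 for Lipe and -0.43 to 0.0029 for Dgat2. Among the other named genes, Ehhadh changed sign on exon-exon reads (0.19), where Fitm1 (adjusted p = 0.40), Agpat3 (0.30), Lpin1 (0.19), Mlxipl (0.33), Col1a1 (0.066) and Grip2 (0.088) lost their calls. Lpin1 also lost its call with library totals (adjusted p = 0.13), DESeq2 without independent filtering (0.075), non-robust fitting (0.057) and the replicate block (0.057).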
